A study of Mus musculus with 31 samples.

Results

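The 114 splicing events described here carry 92 gene symbols, most of them of genes whose products act in transcription or on chromatin. Hmgb2l1 is an older symbol of Hmgxb4, so both name 1 gene. The events were chosen by gene symbol alone, by the beginnings of names such as Zfp, Smarc, Kdm, Jarid, Hdac, Setd, Brd, Ncor, Mef2, Tcf, Fox, Phf, Med, Taf, Atf, Sox and Gtf, leaving out Chd5 and Taf15, from the 1922 events that RASL-seq measured in cortex from mouse models of Huntington's disease (HD). RASL-seq ligates pairs of short oligonucleotides that meet at a splice junction and counts them by sequencing, so each event has 2 counts in a mouse. For a cassette exon the short count is that of the junction that leaves the exon out and the long count that of the junction that keeps it. For other types of event, short and long are the forms so named in the deposited counts. The share of the short form, 100 × short/(short + long), is called exclusion for cassette exons. Of the 114 events, 102 are cassette exons, 6 are alternative 5′ splice sites, 5 are alternative 3′ splice sites and 1 is a pair of mutually exclusive exons. The 2 events named for Foxn3 carry identical counts in every mouse and are 1 event listed 2 times.

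The cortex of 1 hemisphere of each of 31 untreated mice was measured, in 3 sets whose lists of events differ. The R6/2 set held 3 R6/2 HD mice, which carry a transgene of exon 1 of mutant human HTT under the human HTT promoter, and 3 WT mice without it, both 3 months old according to the methods. The titles number these WT mice 3, 4 and 6 and the HD mice 860, 868 and 869. Genotype and mouse number thus go together in this set and cannot be told apart. The Q150 set held 5 WT mice (Q7/Q7), 4 Q150 HET mice (Q7/Q150) and 4 Q150 HOMO mice (Q150/Q150) and the Q175 set 5 WT (Q7/Q7), 4 Q175 HET (Q7/Q175) and 3 Q175 HOMO mice (Q175/Q175), with the repeat in the mouse's own Htt gene. In the titles every knock-in mouse is named Q150, while the genotype labels of all knock-in mutants open with Q175, so the line was taken from the glutamine numbers in the genotype. The methods list 3 HOMO mice for Q150 and 4 for Q175, where the labels, and another part of the study's text, have 4 and 3. The methods give 7 months for Q150 and 18 months for Q175 mice. They place the R6/2 transgene on a mixed B6CBA background and both knock-in alleles on C57BL/6 backgrounds that went through 129 strains, so repeat length, gene, background and age differ together between lines and cannot be told apart. All 10 knock-in WT mice form 1 group in the labels, and they are numbered 1 to 5 in the Q150 set and 6 to 10 in the Q175 set. The members numbered 100 of 1743 events in the R6/2 set, 108 of 1785 in the Q150 set and 106 of 1839 in the Q175 set, and 97 were in all 3.

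Nuclear gene control works in layers. Sequence-specific factors and zinc finger proteins choose sites on DNA, corepressors and coactivators such as Ncor1 and Mediator are recruited by them, remodellers such as the BAF complexes of Smarca4 and Smarca2 slide nucleosomes with ATP, enzymes such as Kdm5c and Kdm6a remove methyl marks from histones, readers such as Brd2 bind acetylated histones, and general factors such as TFIID start the polymerase. Mutant huntingtin is known to bind several transcription regulators, and lowered neuronal transcripts are a long-known feature of HD cortex and striatum. Many of these regulators are themselves made in several forms by alternative splicing.

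The skipped exons that most results turn on are shown first, so that a reader can see what the short form lacks. They are coding cassette exons of named members that could be placed on 1 annotated exon, and those of Foxk2, Zmym3, Crem and Zfp512, which meet this rule too, are not printed. Each was found by matching the deposited span between the flanking exons to 1 exon of the same gene in the GENCODE annotation of GRCm38, since the deposited positions are on another build, and sequence and coordinates are those of GRCm38. Capitals mark the exon, with 20 intron bases in lower case on either side. The exon of Smarca4 lies at chr9:21677953-21678051 on the plus strand, that of Jarid1c at chrX:152239630-152239752 (plus), that of Kdm6a event 8718 at chrX:18247567-18247722 (plus), that of Setd3 at chr12:108160233-108160381 (minus), that of Ncor1 event 4961 at chr11:62359761-62359934 (minus), that of Med24 at chr11:98717709-98717765 (minus), that of Sp100 at chr1:85681086-85681139 (plus), that of Nfyc at chr4:120779120-120779233 (minus) and that of Taf1b at chr12:24509084-24509181 (plus).
Smarca4: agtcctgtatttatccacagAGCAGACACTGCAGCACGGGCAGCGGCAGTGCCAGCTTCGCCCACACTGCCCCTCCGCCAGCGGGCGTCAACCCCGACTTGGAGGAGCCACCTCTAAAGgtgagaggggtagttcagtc
Jarid1c: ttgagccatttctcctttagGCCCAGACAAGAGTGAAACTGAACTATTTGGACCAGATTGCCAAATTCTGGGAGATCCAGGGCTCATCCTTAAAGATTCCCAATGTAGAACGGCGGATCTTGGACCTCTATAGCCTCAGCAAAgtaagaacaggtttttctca
Kdm6a: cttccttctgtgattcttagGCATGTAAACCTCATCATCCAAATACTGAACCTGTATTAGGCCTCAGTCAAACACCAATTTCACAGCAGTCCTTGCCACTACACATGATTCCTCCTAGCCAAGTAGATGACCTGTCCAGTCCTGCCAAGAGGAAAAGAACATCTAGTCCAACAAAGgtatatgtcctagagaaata
Setd3: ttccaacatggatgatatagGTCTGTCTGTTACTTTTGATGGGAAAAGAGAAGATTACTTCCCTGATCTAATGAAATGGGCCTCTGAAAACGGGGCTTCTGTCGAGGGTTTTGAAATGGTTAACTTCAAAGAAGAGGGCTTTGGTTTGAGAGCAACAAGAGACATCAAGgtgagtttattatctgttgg
Ncor1: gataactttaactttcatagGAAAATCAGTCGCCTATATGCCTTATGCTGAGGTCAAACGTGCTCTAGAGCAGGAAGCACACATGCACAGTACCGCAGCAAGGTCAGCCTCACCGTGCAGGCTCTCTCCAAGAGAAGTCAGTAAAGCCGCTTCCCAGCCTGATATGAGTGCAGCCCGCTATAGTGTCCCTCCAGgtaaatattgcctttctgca
Med24: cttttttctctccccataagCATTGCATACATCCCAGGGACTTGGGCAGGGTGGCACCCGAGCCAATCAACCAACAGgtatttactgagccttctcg
Sp100: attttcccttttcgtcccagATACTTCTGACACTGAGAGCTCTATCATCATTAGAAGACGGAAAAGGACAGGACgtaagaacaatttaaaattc
Nfyc: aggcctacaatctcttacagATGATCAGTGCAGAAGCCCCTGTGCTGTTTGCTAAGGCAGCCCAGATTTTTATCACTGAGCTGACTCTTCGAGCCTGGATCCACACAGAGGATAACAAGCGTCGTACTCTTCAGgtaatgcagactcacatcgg
Taf1b: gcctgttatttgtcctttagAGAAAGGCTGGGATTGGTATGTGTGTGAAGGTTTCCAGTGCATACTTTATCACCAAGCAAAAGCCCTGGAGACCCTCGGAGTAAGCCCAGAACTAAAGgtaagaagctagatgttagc
All 9 exons are bounded by AG before and GT after, as introns mostly are. The exons of Smarca4 (99 bases), Jarid1c (123), Kdm6a (156), Ncor1 (174), Med24 (57), Sp100 (54) and Nfyc (114) hold a multiple of 3 bases, so that skipping keeps the reading frame, whereas those of Setd3 (149) and Taf1b (98) do not.

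In WT mice the members spanned the whole range of splicing. Their mean share of the short form lay between 0.143% and 99.3% with a median of 40.0%, against 40.3% over all events, and 78 of the 114 were between 10% and 90%. A median of 514 counts per mouse stood behind a member, with 26 behind the thinnest and 17318 behind the deepest. Over whole files, mice had 2171709 to 5256516 counts. No pair of mice within a group held identical values. Values after ± are SDs over the mice of a group, with 3 mice in each R6/2 group and in Q175 HOMO, 4 in each HET group and in Q150 HOMO, and 5 in each knock-in WT group. Within mice, the mean share of the short form over the members was 45.1% ± 0.111 (SD, n = 3) in R6/2 WT and 46.6% ± 0.302 (n = 3) in R6/2 HD mice. It was 45.6% ± 0.266 (n = 5), 46.7% ± 0.425 (n = 4) and 47.6% ± 0.987 (n = 4) in WT, Q150 HET and Q150 HOMO mice of the Q150 set, and 45.0% ± 0.726 (n = 5), 45.6% ± 0.678 (n = 4) and 46.3% ± 0.272 (n = 3) in WT, Q175 HET and Q175 HOMO mice of the Q175 set. Over all events the mean went from 45.5% to 47.2% in R6/2, from 44.6% to 46.4% in Q150 HOMO and from 45.0% to 45.6% in Q175 HOMO mice.

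Changes were tested on log2(short/long) with limma over all events of a set, and a member passed where p, adjusted by the Benjamini-Hochberg method, was under 0.05. Among R6/2 HD mice 25 of 100 members passed (25.0%; 28.6% of all events). Of these, 16 had a higher share of the short form (21.1% of all events rose) and 9 a lower one (7.46% of all events fell). In Q150 HOMO mice 30 of 108 passed (27.8%; 23.9% of all events), 27 higher (19.8% of all events) and 3 lower (4.09%). In Q150 HET mice 3 of 108 passed (3.47% of all events), and in Q175 HOMO mice 2 of 106 (1.89%; 7.07% of all events), all higher. In Q175 HET mice none passed by limma or by a quasi-binomial model (0.598% of all events by limma), with 4 members at an unadjusted p under 0.05. In all, 38 members in 33 genes passed in at least 1 of these 5 comparisons with WT and 76 in none, 17 passed in 2 or more, of which Jarid1c, Kdm6a event 8718 and Setd3 passed in 3 and Smarca4 in 4. The gaps between the members' shares and those of the panel, the widest being that of Q175 HOMO mice, were not tested. The median changes were 0.18 for members and 0.18 for all events in R6/2, 0.23 and 0.19 in Q150 HOMO, and 0.09 and 0.07 in Q175 HOMO mice. Relative to each mouse's median event, 24 members passed in R6/2 (27.6% of all events), 12 of them higher (16.4%), and 16 in Q150 HOMO mice (18.3%), 9 of them higher (9.52%), which compares with the 16 and 27 higher members above. Mutant and WT mice did not overlap for 43.0% of members in R6/2 (41.5% of all events), for 22.2% in Q150 HOMO (18.2%) and for 10.4% in Q175 HOMO mice (13.8%).

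**Figure D1:**
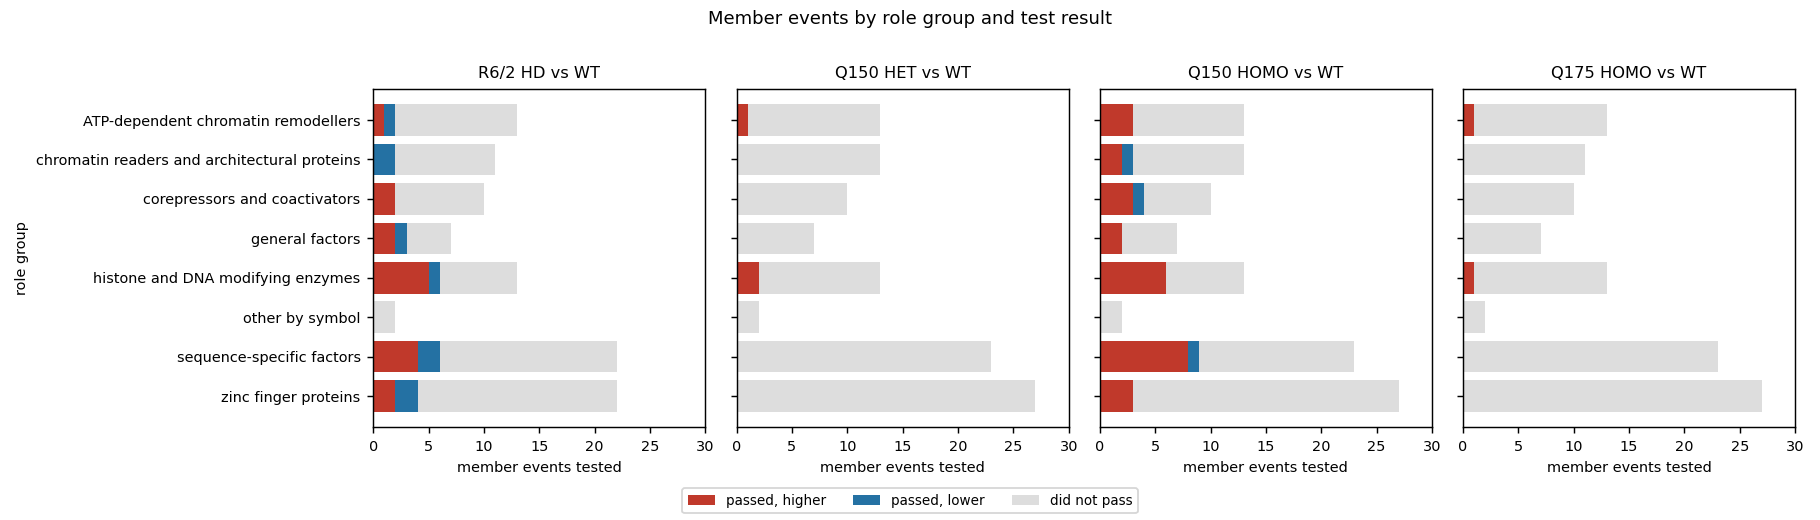
Number of member events tested in each role group (x axis) and their test result, in 4 comparisons with WT. Red marks events that passed with a higher share of the short form, blue those with a lower share, and grey those that did not pass. The histone and DNA modifying enzymes hold 6 passing events of 13 in R6/2 HD and 6 of 13 in Q150 HOMO mice, with Setd3 counted in each by its symbol.

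Among the histone and DNA modifying enzymes, 6 of 13 events passed in R6/2 (5 higher), 2 of 13 in Q150 HET, 6 of 13 in Q150 HOMO (all higher) and 1 of 13 in Q175 HOMO mice, beside 28.6%, 3.47%, 23.9% and 7.07% of all events. Both events of Kdm6a, which are not independent, are among the 6 of R6/2 and of Q150 HOMO mice and 1 is among the 2 of Q150 HET mice. Setd3, grouped here by its symbol, is among the calls of R6/2, Q150 HET and Q150 HOMO mice, and its known substrate is actin. No difference between role groups was tested. The median change of the group was 0.55 in R6/2 and 0.48 in Q150 HOMO mice. Jarid1c, now Kdm5c, an X-linked demethylase of the methyl marks found at active promoters, had an exclusion of 6.40%, 9.61% and 9.04% in the 3 R6/2 WT mice and of 26.9%, 22.6% and 20.9% in the 3 R6/2 HD mice. Every HD mouse lay above every WT mouse, and the groups were farther apart than either was wide. The change was 1.75 on the log2 scale (SE 0.23, adjusted p = 1.21e-04). In the Q175 set the 5 WT mice lay between 14.3% and 18.3% and the 3 HOMO mice between 22.1% and 23.2%, without overlap (0.60, SE 0.15, adjusted p = 0.00895). WT mice of the Q150 set reached from 11.7% to 18.3% and HOMO mice from 15.8% to 27.8%, which overlap (0.69, SE 0.23, adjusted p = 0.0323). Neither group of HET mice passed, at 0.16 (SE 0.23) in Q150 and 0.16 (SE 0.14) in Q175. The Q150 HOMO call was lost relative to the median event (adjusted p = 0.137), without a variance trend, and without WT replicate 3, 4 or 5 or HOMO replicate 1 or 2. The Q175 HOMO call was lost without a variance trend and with the series of mouse numbers as a term (adjusted p = 0.129), where only WT mice were in both series.

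Kdm6a, an X-linked demethylase that removes the repressive marks laid by Polycomb proteins, had 2 events that share their right flanking exon and are not independent. In event 8718 the exon of 156 bases shown above was skipped in 39.1%, 48.1% and 40.4% of the junction counts of R6/2 WT and in 52.0%, 62% and 57.4% of those of R6/2 HD mice. In the Q150 set the 5 WT mice stood at 34.4%, 38.4%, 41.8%, 42.6% and 34.4%, the 4 HET mice at 55.9%, 51.1%, 49.6% and 52.6%, and the 4 HOMO mice at 63.9%, 58.1%, 59.1% and 53.2%. All mice with a mutant allele in these sets were thus above all of their WT mice. The change was 0.85 in R6/2 (SE 0.24, adjusted p = 0.0165), 0.82 in Q150 HET (SE 0.17, adjusted p = 0.0117) and 1.19 in Q150 HOMO mice (SE 0.17, adjusted p = 3.38e-05). In the Q175 set the groups overlapped, at 45.7% ± 6.27 in WT and 51.8% ± 5.82 in HOMO mice (0.36, SE 0.18, adjusted p = 0.262). Event 9418, whose span holds several annotated exons, rose from 5.41% ± 0.808 to 12.2% ± 3.66 in R6/2 (1.20, SE 0.34, adjusted p = 0.0184) and from 4.88% ± 1.74 to 11.9% ± 2.07 in Q150 HOMO mice (1.42, SE 0.28, adjusted p = 8.84e-04). Leaving out WT replicate 3 ended the R6/2 call of both events, WT replicate 6 or HD replicate 868 that of event 8718, and HD replicate 869 that of event 9418, while HET replicate 1 ended the Q150 HET call. A Y-linked copy, Uty, resembles Kdm6a, and sex is not among the labels of these mice. That holds for the calls of the other X-linked members Jarid1c, Zmym3 and Taf1 too. Uty was in the event list of the R6/2 set only. It had 58 to 77 counts in the 3 WT mice (21.5 to 26.7 CPM) and 116 to 190 in the 3 HD mice (29.3 to 43.8 CPM). It was thus higher in every HD mouse than in any WT mouse. The methods list no separate primer pairs for each line, and the lowest junction count of any mouse was 4 in every set. Absence from the other lists therefore does not show that Uty was not assayed in the knock-in mice. The part of Uty in the change of Kdm6a was not tested.

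Setd3 belongs to the SET domain family by its symbol, although its known substrate is a histidine of actin. Its exclusion was low in every group. In the Q150 set it was 5.37%, 5.29%, 5.45%, 4.64% and 5.59% in WT, 7.60%, 7.68%, 7.14% and 6.44% in HET and 9.51%, 10.7%, 8.16% and 7.10% in HOMO mice, so that neither group of mutant mice overlapped WT. The change was 0.48 in HET (SE 0.13, adjusted p = 0.0405) and 0.79 in HOMO mice (SE 0.13, adjusted p = 1.33e-04). In R6/2 it rose from 5.63% ± 0.689 to 8.32% ± 1.96 (0.58, SE 0.18, adjusted p = 0.0294). In Q175 HOMO mice it was 7.92% ± 0.506 against 7.00% ± 0.916 in WT (0.20, SE 0.12, adjusted p = 0.366). The R6/2 call was lost without WT replicate 3 or 4 or HD replicate 868 or 869, without a variance trend and relative to the median event. The HET call was lost in 7 of the 13 fits that left out 1 mouse (WT replicates 1 to 4 and HET replicates 1 to 3), relative to the median event, without a variance trend, in the quasi-binomial model and with all 10 WT mice.

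Whsc1l1, now Nsd3, encodes a methyltransferase of histone H3 and an isoform that lacks the catalytic end. Its event is an alternative 5′ splice site, whose short form took 46.9%, 45.0% and 39.1% in R6/2 WT and 66.5%, 61.7% and 63.5% in R6/2 HD mice. WT mice of the Q150 set reached from 41.8% to 59.1% and HOMO mice from 64.3% to 75.0%. No HD or HOMO mouse of these sets overlapped WT. The changes were 1.19 in R6/2 (SE 0.16, adjusted p = 1.49e-04) and 1.18 in Q150 HOMO mice (SE 0.22, adjusted p = 4.29e-04), against 0.30 in Q175 HOMO mice (SE 0.15, adjusted p = 0.269). Among the rest of the group Jmjd6, a nuclear hydroxylase, rose in Q150 HOMO mice from 97.6% to 98.6% (0.79, SE 0.24, adjusted p = 0.0211). It is outside the named events, defined below, and most such Q150 HOMO calls were lost relative to the median event. Mll5, now Kmt2e, fell in R6/2 HD mice from 81.4% to 72.2% (-0.76, SE 0.19, adjusted p = 0.00982).

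**Figure D2:**
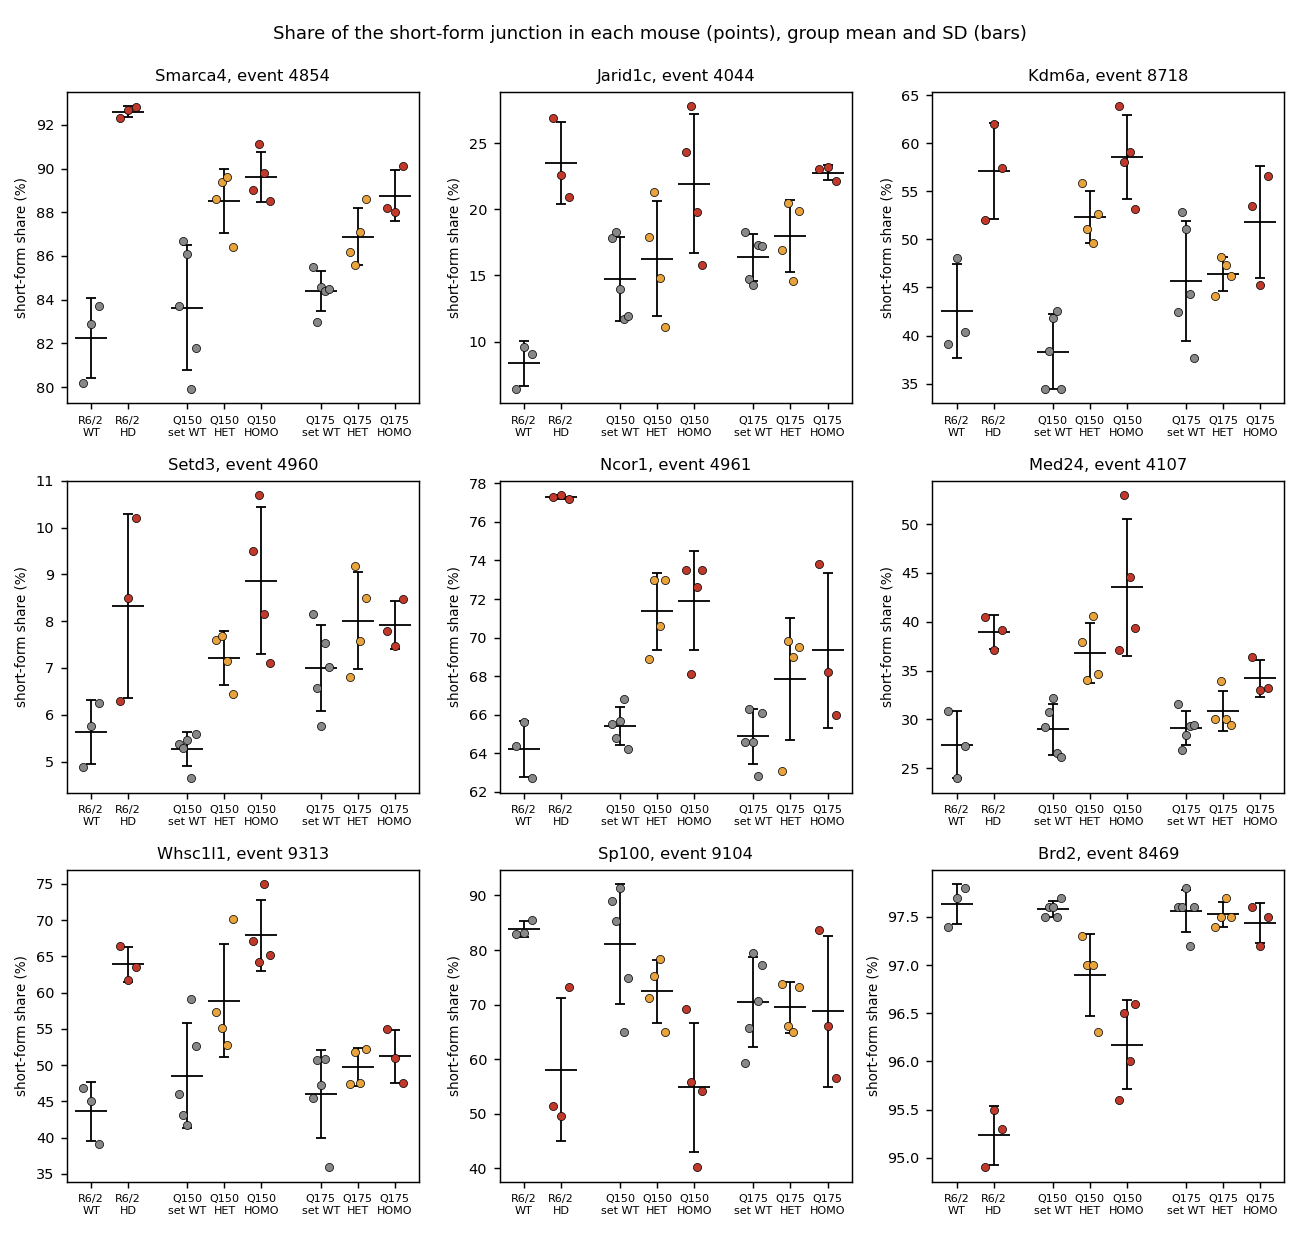
Share of the short-form junction (y axis, %, each panel on its own scale) for 9 member events in each of the 31 mice. Points are mice (grey WT, orange HET, red HD or HOMO) and bars the group mean and SD. Smarca4 and Jarid1c stand above WT in R6/2 HD, Q150 HOMO and Q175 HOMO mice, with overlap only for Jarid1c in the Q150 set. Sp100 and Brd2 stand lower in R6/2 HD and Q150 HOMO mice, with overlap for Sp100 in the Q150 set. In Q175 HOMO mice neither stands apart from WT.

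Of the 13 events grouped with the ATP-dependent remodellers, 2 passed in R6/2 (1 higher), 1 in Q150 HET, 1 in Q175 HOMO and 3 in Q150 HOMO mice, beside 28.6%, 3.47%, 7.07% and 23.9% of all events. Smarca4, the BRG1 ATPase of the BAF complexes, skipped its exon of 99 bases in most transcripts even in WT mice. In the R6/2 set exclusion was 80.2%, 82.9% and 83.7% in WT and 92.3%, 92.7% and 92.8% in HD mice. In the Q150 set it was 83.7%, 86.7%, 86.1%, 79.9% and 81.8% in WT, 88.6%, 89.4%, 89.6% and 86.4% in HET and 89.0%, 91.1%, 89.8% and 88.5% in HOMO mice. In the Q175 set it was 85.5%, 83.0%, 84.6%, 84.4% and 84.5% in WT, 86.2%, 85.6%, 87.1% and 88.6% in HET and 88.2%, 88.0% and 90.1% in HOMO mice. HD and HOMO mice lay above all WT mice of their set in each line, and only the lowest Q150 HET mouse fell inside the WT range. The change was 1.42 in R6/2 (SE 0.14, adjusted p = 2.41e-05), 0.58 in Q150 HET (SE 0.15, adjusted p = 0.0315), 0.74 in Q150 HOMO (SE 0.15, adjusted p = 0.00113) and 0.55 in Q175 HOMO mice (SE 0.12, adjusted p = 0.00246), while 0.29 in Q175 HET mice did not pass (SE 0.11, adjusted p = 0.269). The HET call was lost without WT replicate 1, 4 or 5 or HET replicate 1, 2 or 3, without a variance trend and relative to the median event (adjusted p = 0.107). The calls in R6/2 HD, Q150 HOMO and Q175 HOMO mice passed under every alternative run.

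Smarca2, the BRM ATPase that replaces BRG1 in other BAF complexes, had an event (8330) whose span matched several exons. Its exclusion was 2.21%, 3.43%, 2.70%, 3.28% and 4.69% in Q150 set WT and 7.59%, 7.10%, 6.79% and 5.93% in Q150 HOMO mice. HOMO mice lay above all WT mice (1.16, SE 0.23, adjusted p = 8.70e-04). In R6/2 HD mice the groups did not overlap either but the change of 0.51 missed the threshold (SE 0.22, adjusted p = 0.108), and in Q175 HOMO mice it was -0.24 (SE 0.20, adjusted p = 0.539). Ep400, the ATPase of the NuA4 complex, passed in Q150 HOMO mice (0.48, SE 0.17, adjusted p = 0.0430). It is outside the named events, and most such Q150 HOMO calls were lost relative to the median event. Arid4b, which the symbol rule puts here although it is a subunit of the Sin3 corepressor, fell in R6/2 HD mice (-0.48, SE 0.11, adjusted p = 0.00584).

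Of the corepressors and coactivators, 2 of 10 passed in R6/2 (28.6% of all events), both higher, and 4 of 10 in Q150 HOMO mice (23.9%), 3 of them higher. Ncor1, the scaffold that brings Hdac3 to nuclear receptors, skipped the exon of event 4961 in 64.4%, 65.6% and 62.7% of R6/2 WT and in 77.3%, 77.4% and 77.2% of R6/2 HD counts. The HD mice were nearly alike, and far above WT. In the Q150 set WT mice lay between 64.2% and 66.8%, HET mice between 68.9% and 73.0% and HOMO mice between 68.1% and 73.5%. The change was 0.92 in R6/2 (SE 0.12, adjusted p = 9.78e-05) and 0.44 in Q150 HOMO mice (SE 0.11, adjusted p = 0.00736), and that of 0.40 in Q150 HET mice missed the threshold although no HET mouse overlapped WT (SE 0.11, adjusted p = 0.0503). Relative to the median event the Q150 HOMO change fell to 0.24 and its call was lost (adjusted p = 0.188). Of the other Ncor1 exons in Q150 HOMO mice, event 3800 rose by 0.34 (SE 0.12, adjusted p = 0.0412) and event 7377 fell by 0.43 (SE 0.13, adjusted p = 0.0249). These are outside the named events, and most such Q150 HOMO calls were lost relative to the median event.

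Med24, a tail subunit of the Mediator that links activators to the polymerase, had an exclusion of 30.9%, 24.0% and 27.3% in R6/2 WT and of 40.5%, 37.1% and 39.2% in R6/2 HD mice. WT mice of the Q150 set lay between 26.1% and 32.2%, HET mice between 34.0% and 40.6% and HOMO mice at 37.1%, 53.0%, 44.6% and 39.4%. Every mutant mouse of these sets was above WT. The changes of 0.76 in R6/2 (SE 0.17, adjusted p = 0.00626) and 0.92 in Q150 HOMO mice (SE 0.17, adjusted p = 5.16e-04) passed under every alternative run. Those of 0.51 in Q150 HET (SE 0.17, adjusted p = 0.102) and 0.34 in Q175 HOMO mice (SE 0.14, adjusted p = 0.140) did not pass, although their mice did not overlap WT.

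Among the general factors 3 of 7 passed in R6/2 (28.6% of all events) and 2 of 7 in Q150 HOMO mice (23.9%). Taf1 is the X-linked largest subunit of TFIID, the complex that recognises core promoters. Its alternative 3′ splice site event had a short form of 41.5%, 36.9% and 36.7% in R6/2 WT and of 32.2%, 30.6% and 27.3% in R6/2 HD mice, against 29.4%, 33.1%, 32.7%, 34.2% and 33.3% in Q150 set WT and 36.1%, 36.4%, 41.7% and 41.5% in Q150 HOMO mice. The short form was thus lower than WT in all HD mice of one set and higher than WT in all HOMO mice of the other. The change was -0.54 in R6/2 (SE 0.16, adjusted p = 0.0204) and 0.40 in Q150 HOMO mice (SE 0.14, adjusted p = 0.0387), and their difference of -0.94 passed the interaction test (SE 0.21, adjusted p = 0.00611). The R6/2 call was lost without WT replicate 3 or HD replicate 869 and without a variance trend. The Q150 HOMO call was lost without WT replicate 1 or 3 or HOMO replicate 3 or 4, without a variance trend and relative to the median event (0.20, adjusted p = 0.358).

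Taf1b, a subunit of the selectivity factor of RNA polymerase I at ribosomal DNA, skipped its exon of 98 bases in 40.8%, 39.2% and 40.0% of R6/2 WT and in 64.6%, 66.5% and 56.0% of R6/2 HD counts. The groups were wide apart (1.32, SE 0.17, adjusted p = 9.92e-05). In Q150 HOMO mice it stood at 39.4% ± 2.13 against 36.7% ± 3.30 in WT (0.17, SE 0.13, adjusted p = 0.40) and in Q175 HOMO mice at 40.8% ± 0.248 against 39.7% ± 2.42 (0.07, SE 0.12, adjusted p = 0.811). The R6/2 change exceeded that of Q150 HOMO mice by 1.15 (SE 0.22, adjusted p = 0.00171) and that of Q175 HOMO mice by 1.25 (SE 0.20, adjusted p = 4.76e-05). Gtf2ird1, a relative of TFII-I, rose from 30.1% ± 5.88 to 43.1% ± 4.97 in R6/2 (0.82, SE 0.26, adjusted p = 0.0329) and from 28.1% ± 6.04 to 36.4% ± 1.73 in Q150 HOMO mice (0.57, SE 0.21, adjusted p = 0.0460). Both Gtf2ird1 calls were lost relative to the median event, without a variance trend, and in 3 of 6 and 10 of 13 fits that left out 1 mouse: WT replicates 4 and 6 and HD replicate 868 in R6/2, and all but WT replicates 4 and 5 and HET replicate 4 in the Q150 set.

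Of the sequence-specific factors 6 of 22 passed in R6/2 (4 higher; 28.6% of all events passed) and 9 of 23 in Q150 HOMO mice (8 higher; 23.9%). Sp100, a SAND domain protein of PML nuclear bodies that the symbol pattern Sp1 takes in, changed downward. Its exon of 54 bases was skipped in 82.9%, 83.1% and 85.5% of R6/2 WT and in 51.5%, 49.6% and 73.2% of R6/2 HD counts, that is, it was kept more often in HD mice. In the Q150 set WT mice stood at 88.9%, 85.3%, 91.4%, 64.9% and 74.9%, HET mice at 71.3%, 75.2%, 78.4% and 65.0% and HOMO mice at 69.2%, 55.9%, 40.2% and 54.1%. WT replicate 4 lay below the highest HOMO mouse, and no other WT mouse did. WT replicates 4 and 5 were of the series of higher mouse numbers, within which HOMO mice had 47.1% against 69.9% in WT (a change of -1.40), as against 62.5% and 88.6% within the lower series (-2.22). The change was -1.87 in R6/2 (SE 0.33, adjusted p = 0.00111) and -1.99 in Q150 HOMO mice (SE 0.38, adjusted p = 5.94e-04), and both calls passed under every alternative run. In the Q175 set groups overlapped widely, from 59.4% to 79.4% in WT and from 56.6% to 83.7% in HOMO mice (-0.06, SE 0.27, adjusted p = 0.932). Sp100 has related copies on mouse chromosome 1, and its probes were not compared with them here.

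Nfyc, the third subunit of the CCAAT-binding factor NF-Y, kept its exon of 114 bases in nearly all transcripts. The exon was skipped in 1.10%, 0.660% and 2.00% of R6/2 WT and in 2.52%, 3.50% and 2.90% of R6/2 HD counts (1.37, SE 0.33, adjusted p = 0.00872). The skipped form stayed a small minority in all mice. In Q150 HOMO mice the change was 0.47 (SE 0.21, adjusted p = 0.108) and in Q175 HOMO mice -0.20 (SE 0.25, adjusted p = 0.735). Atf2, a bZIP factor activated by stress kinases, rose at 2 of its 3 events in both R6/2 HD and Q150 HOMO mice. Event 4502, an exon of 179 bases annotated in a noncoding transcript only, rose from 7.42% ± 0.860 to 12.8% ± 1.31 in R6/2 (0.87, SE 0.15, adjusted p = 9.89e-04) and from 8.76% ± 0.909 to 12% ± 1.08 in Q150 HOMO mice (0.50, SE 0.13, adjusted p = 0.00584). Event 7431, an exon of 63 bases outside the coding part, rose from 87.1% ± 1.94 to 90.8% ± 0.404 in R6/2 (0.55, SE 0.15, adjusted p = 0.0143) and from 85.7% ± 2.11 to 88.7% ± 1.39 in Q150 HOMO mice (0.38, SE 0.14, adjusted p = 0.0461). Foxk2, a forkhead repressor of autophagy genes, rose from 2.91% ± 0.387 to 4.46% ± 0.149 in R6/2 (0.64, SE 0.21, adjusted p = 0.0366) and from 2.56% ± 0.426 to 3.89% ± 0.680 in Q150 HOMO mice (0.62, SE 0.19, adjusted p = 0.0229). Relative to the median event the Foxk2 calls and those of Atf2 event 7431 were lost in both lines and that of Atf2 event 4502 in Q150 HOMO mice.
The smaller calls of the group also rested on single mice. Atf2 event 7431 was lost without WT replicate 6 in R6/2 and in 9 of 13 fits of the Q150 set, which left out WT replicate 1, 2 or 3, HET replicate 1, 2 or 3 or HOMO replicate 2, 3 or 4. Foxk2 was lost in R6/2 without any one mouse but WT replicate 4, and in Q150 HOMO mice without WT replicate 2 or HOMO replicate 1 or 2.

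Crem, a cAMP-responsive modulator known for its many repressor and activator forms, had 2 of 3 events that passed in Q150 HOMO mice and in no other comparison with WT. The 2 were matched to the same skipped exon of 36 bases, with different flanking junctions, and are not independent. Event 7869 had an exclusion of 25.2% ± 3.97 against 17.9% ± 2.75 in WT (0.63, SE 0.23, adjusted p = 0.0491), a call that was lost in 10 of 13 fits without 1 mouse (all but WT replicate 5, HET replicate 4 and HOMO replicate 1) and relative to the median event. In R6/2 the change was 1.14 (SE 0.42, adjusted p = 0.0604), with 1 WT mouse at 20.6% beside 7.34% and 8.33%. Mef2 factors, which drive activity-dependent genes in neurons, differed by member. The mutually exclusive exons of Mef2a shifted in R6/2 HD mice from 87.8% ± 0.315 to 82.3% ± 0.272 of the short form (-0.63, SE 0.098, adjusted p = 4.88e-04). The exon of 24 bases of Mef2c rose in Q150 HOMO mice from 3.61% ± 0.663 to 5.98% ± 1.18, with overlap (0.76, SE 0.22, adjusted p = 0.0158). Tcf20 (0.65) and Tcf7l2 (0.88), the latter a partner of beta-catenin, passed in Q150 HOMO mice too. The Q150 HOMO calls of Mef2c, Tcf20, Tcf7l2 and the other Crem event are outside the named events. Most such calls were lost relative to the median event.

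Of the chromatin readers and architectural proteins 2 of 11 passed in R6/2 (28.6% of all events), both lower, and 3 of 13 in Q150 HOMO mice (23.9%), 2 of them higher. Brd2, a BET protein that binds acetylated histones, has an alternative 3′ splice site whose short form took 97.4%, 97.7% and 97.8% in R6/2 WT and 94.9%, 95.5% and 95.3% in R6/2 HD mice. In the Q150 set it took 97.5%, 97.6%, 97.6%, 97.5% and 97.7% in WT, 97.3%, 97.0%, 97.0% and 96.3% in HET and 95.6%, 96.5%, 96.0% and 96.6% in HOMO mice. No mutant mouse of either set overlapped WT, whose mice lay close together. The change was -1.05 in R6/2 (SE 0.11, adjusted p = 3.50e-05) and -0.68 in Q150 HOMO mice (SE 0.11, adjusted p = 1.83e-04), that of -0.38 in Q150 HET mice missed the threshold (SE 0.11, adjusted p = 0.0692), and in Q175 HOMO mice it was -0.07 (SE 0.11, adjusted p = 0.791). Hmgn3, a nucleosome-binding protein, fell in R6/2 from 86.6% to 82.0% (-0.50, SE 0.12, adjusted p = 0.00754). Brd1 (0.42) and Phf15, now Jade2 (0.77), both of histone acetyltransferase complexes, rose in Q150 HOMO mice. Both are outside the named events, and most such Q150 HOMO calls were lost relative to the median event.

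The zinc finger proteins were the largest group, with 4 of 22 passing in R6/2 (2 higher; 28.6% of all events passed), 3 of 27 in Q150 HOMO (all higher; 23.9%) and none by limma in Q150 HET, Q175 HET or Q175 HOMO mice. Zmym3, an X-linked MYM-type zinc finger protein of histone deacetylase complexes, had an exclusion of 45.3%, 27.6% and 45.5% in R6/2 WT and of 56.1%, 60.7% and 70.3% in R6/2 HD mice (1.37, SE 0.34, adjusted p = 0.00956). The Q150 set had WT mice between 35.5% and 41.7% and HOMO mice at 60.6%, 58.0%, 54.4% and 39.0% (0.84, SE 0.23, adjusted p = 0.0117). The last HOMO mouse lay inside the WT range, and without HOMO replicate 1 the call was lost. Zfp317, a KRAB zinc finger protein, skipped an exon of 55 bases outside the coding part in 59.3%, 61.9% and 55.7% of R6/2 WT and in 74.0%, 79.2% and 76.0% of R6/2 HD counts (1.18, SE 0.18, adjusted p = 4.14e-04). In Q150 HOMO mice it stood at 79.9%, 75.4%, 69.9% and 73.4% against 60.1% to 65.5% in WT, without overlap (0.82, SE 0.17, adjusted p = 0.00118). Zmynd11 (-0.41) and Zfp788 (-1.08) fell in R6/2 HD mice, and Zfp207 (1.15) rose in Q150 HOMO mice. Zfp207 is outside the named events, and most such Q150 HOMO calls were lost relative to the median event. In R6/2 the calls outside the named events were those of Mll5, Arid4b, Mef2a, Hmgn3, Zmynd11 and Zfp788. Some of these were lost without a variance trend. The 2 members outside the role groups, Mllt3, a reader of acylated histones in elongation complexes, and Mllt4 (now Afdn, an adhesion protein), passed for the ratio in no comparison by limma. For the sum of both junctions, described below, they passed in R6/2 HD mice (0.31, adjusted p = 0.00461, and 0.91, adjusted p = 6.36e-04).

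**Figure D3:**
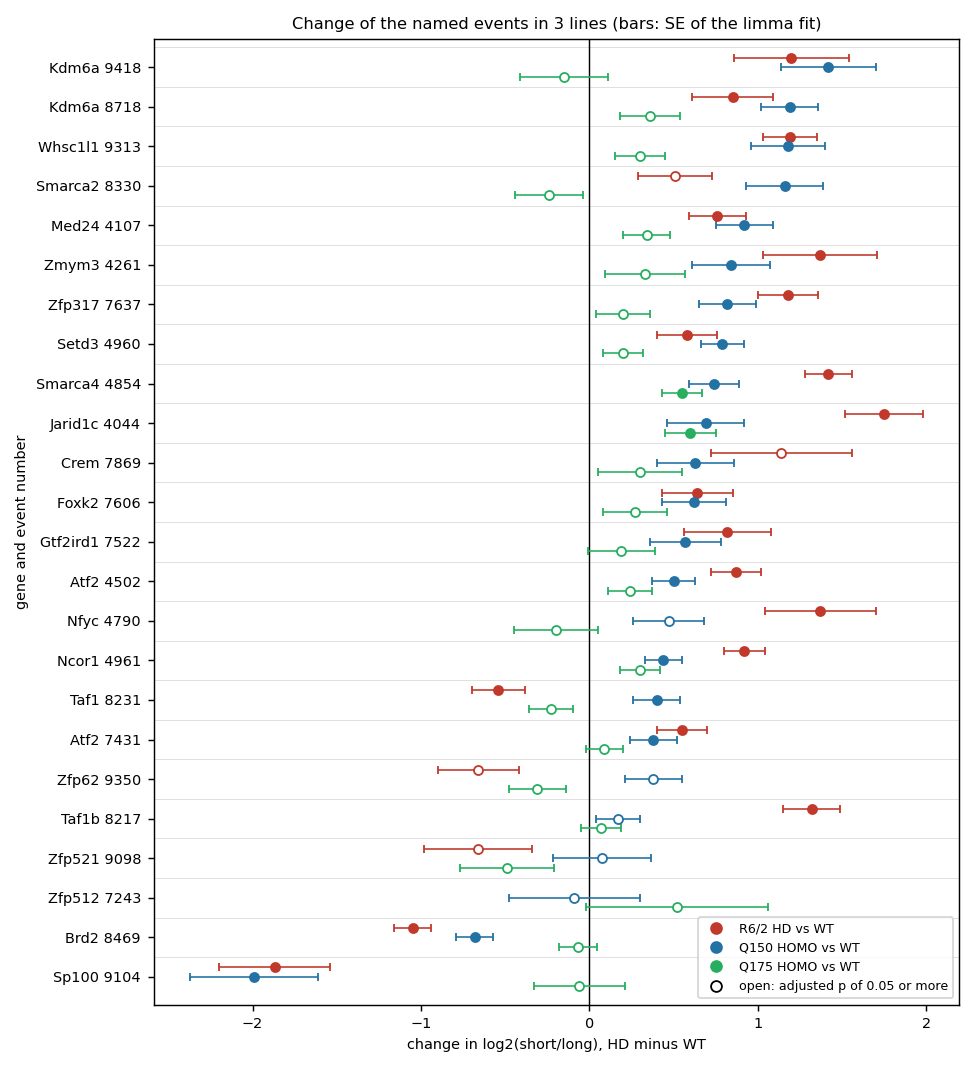
Change in log2(short/long) of the 24 named events (y axis) in R6/2 HD, Q150 HOMO and Q175 HOMO mice against WT of their set (x axis). Points are the change fitted by limma, bars its SE, and filled points passed. Red and blue points lie on the same side of 0 for most events, Taf1 being the passing exception, and green points lie nearer to 0 for most.

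The changes of R6/2 and Q150 HOMO mice, which share no control mice, were compared over the members that both event lists hold. Of the 98 members in both sets, 17 passed in both, which is 68.0% of the 25 that passed in R6/2 and 56.7% of the 30 in Q150 HOMO mice. Over all 1680 shared events the overlap was 245, 49.7% of the R6/2 and 59.0% of the Q150 HOMO calls. All but Taf1 of the 17 members moved in the same direction. Only Jarid1c and Smarca4 among the members also passed in Q175 HOMO mice.

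Where lines differed, R6/2 HD mice mostly had the larger change. The difference between R6/2 HD and Q150 HOMO changes passed in 5 members (6.96% of all 1680 events passed), Hmgn3, Taf1b, Taf1, Mef2a and Zfp62. Zfp62 had passed in neither line alone, at -0.66 in R6/2 (SE 0.24, adjusted p = 0.0583) and 0.38 in Q150 HOMO mice (SE 0.17, adjusted p = 0.117), a difference of -1.03 (SE 0.28, adjusted p = 0.0234). Between R6/2 HD and Q175 HOMO mice it passed in 15 members (13.0% of events), each of which had passed in R6/2 and had the smaller change in Q175. Smarca4 and Jarid1c were among them, with differences of 0.88 (SE 0.18, adjusted p = 9.95e-04) and 1.15 (SE 0.25, adjusted p = 0.00205), as were Nfyc (1.57, SE 0.42, adjusted p = 0.0107) and Sp100 (-1.81, SE 0.50, adjusted p = 0.0129). Between Q150 HOMO and Q175 HOMO mice it passed in 7 members (3.41% of events), among them Kdm6a event 9418 (1.57, SE 0.38, adjusted p = 0.0204), Smarca2 (1.40, SE 0.31, adjusted p = 0.00810) and Sp100 (-1.93, SE 0.55, adjusted p = 0.0402). The differences of Taf1b and Mef2a against both knock-in lines, of Taf1 against Q150, of Smarca4, Jarid1c, Nfyc, Zfp317 and Brd2 between R6/2 and Q175, and of Smarca2 between Q150 and Q175 passed under every alternative run. That of Zfp62 was lost without WT replicate 3 or 6 or HD replicate 860 or 869 of the R6/2 set. That of Sp100 between R6/2 and Q175 was lost without Q175 HOMO replicate 1 and without a variance trend, and that between Q150 and Q175 in 10 of 25 fits without 1 mouse, which left out 1 of Q150 set WT replicates 1 to 3, Q150 HOMO replicates 2 and 3, Q175 set WT replicates 6, 7 and 9 and Q175 HOMO replicates 1 and 2. Those of Kdm6a event 9418 were lost without Q175 HOMO replicate 2 and, against Q150, without Q175 HOMO replicate 1, and against R6/2 without R6/2 WT replicate 3 or HD replicate 869 and with a pseudocount of 5. The WT mice of the sets were not at one level either, with Jarid1c at 8.35% ± 1.71, 14.7% ± 3.17 and 16.4% ± 1.77 and Sp100 at 83.8% ± 1.42, 81.1% ± 11.0 and 70.5% ± 8.25 in the WT mice of the R6/2, Q150 and Q175 sets.

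**Figure D4:**
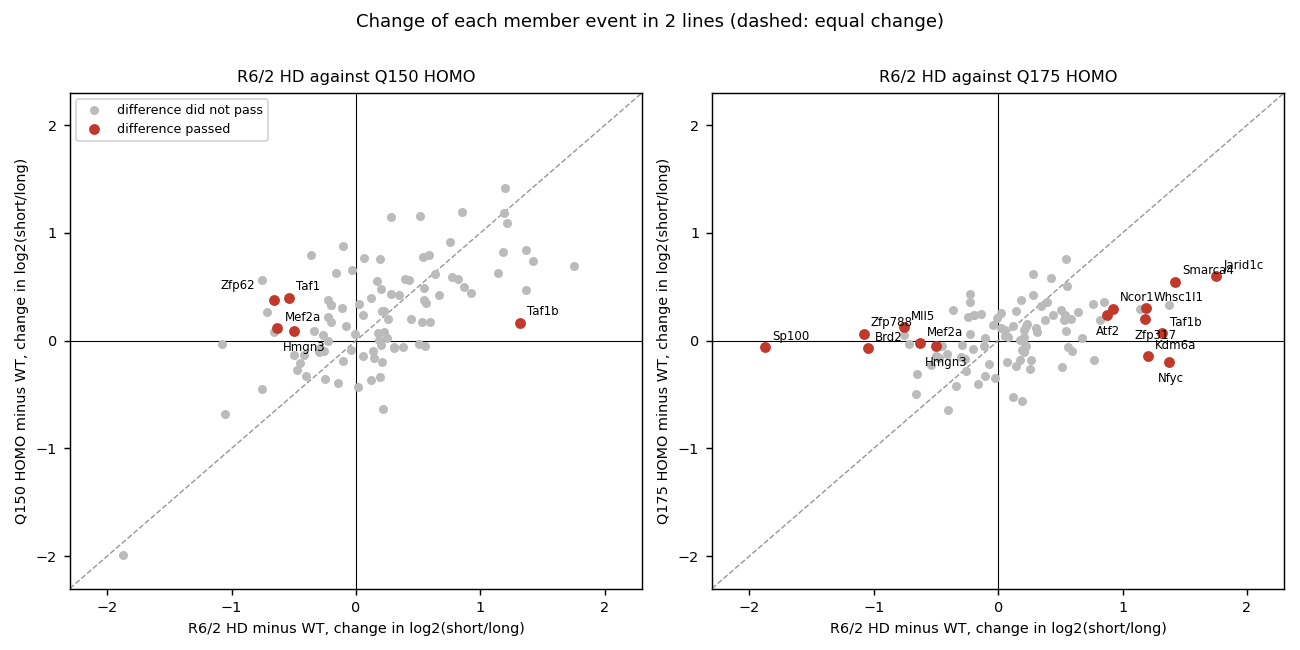
Change in log2(short/long) of each member event in R6/2 HD mice (x axis) against that in Q150 HOMO (left, y axis) and Q175 HOMO mice (right, y axis). Red points are members whose change differed between the lines and carry the gene symbol, grey points are the others, and the dashed line marks equal change. In the right panel the 15 red points lie nearer to 0 on the y axis than on the x axis.

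The second mutant allele was compared directly within the knock-in lines. By limma no member passed between HOMO and HET mice of the Q150 line (2.18% of all events did) or of the Q175 line (0.816%), nor by the quasi-binomial model, while 16 and 10 members had an unadjusted p under 0.05. All 4 Q175 HET mice were in the low and all 3 Q175 HOMO mice in the high series of mouse numbers, so among these mice the second allele and the series cannot be told apart. With the series as a term, which the WT mice of both series set, no member passed by limma (0.163% of all events), and 5 had an unadjusted p under 0.05. The mean of Q150 HET mice lay between those of WT and HOMO mice in 20 of the 24 named events, most of which were chosen for their change in these mice, in 63 of 108 members (58.3%) and in 56.1% of all events. Smarca4, Kdm6a event 8718, Setd3, Med24 and Brd2 were among the 20, and Taf1b and Nfyc were not. With the series of mouse numbers as a term, 11 of 108 members passed in Q150 HET mice against WT (7.68% of all events), among them Sp100 (-1.04, adjusted p = 0.00256), Whsc1l1 (0.71, adjusted p = 0.00178), Ncor1 event 4961 (0.42, adjusted p = 0.00983), Brd2 (-0.38, adjusted p = 0.0181), Kdm6a event 9418 (0.98, adjusted p = 0.0252) and Med24 (0.48, adjusted p = 0.0469). The others were Smarca4, Setd3 and Kdm6a event 8718, which had also passed without the term, and, named after their values were seen, Ncoa1 (-0.48, adjusted p = 0.0223) and Ep400 event 8400 (1.20, adjusted p = 0.0251). Between HOMO and HET mice of the Q150 line 3 of 108 members passed with that term (4.48% of all events), also named after their values were seen: Jarid1c (0.71, adjusted p = 0.00813), Smarca2 event 8271 (0.31, adjusted p = 0.0307) and Sp100 (-0.82, adjusted p = 0.0320). Within each series on its own, all 19 named members that passed in Q150 HOMO and all 3 that passed in Q150 HET mice had the same direction as over the whole set. These members were chosen by passing in the same mice, so the direction is a description. The series held 2 HOMO against 3 WT and 2 against 2 mice, and 3 HET against 3 WT and 1 against 2.

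The sum of both junctions was scaled to the same total in every mouse and is given in CPM. It stands for the amount of transcript only if both probe pairs work equally well, which was not tested. Events of 1 gene can move apart. Kdm6a event 8718 stood at 69.5 to 87 CPM in R6/2 WT and at 54.6 to 71.5 in R6/2 HD mice. Event 9418 stood at 67.2 to 70.9 and at 72.5 to 88.3. The sum passed in 48 of 100 members in R6/2 (44.4% of all events), of which 40 were higher (29.5% of all events), in 1 of 108 in Q150 HET (0.840%), in 14 of 108 in Q150 HOMO (14.1%), of which 10 were higher (9.36%), in none in Q175 HET (0.109%) and in 5 of 106 in Q175 HOMO mice (12.8%), of which 4 were higher (7.01%). Scaling depends on the panel, and with median-ratio size factors the counts were 33 in R6/2 (22 higher; 39.3% of all events passed), 8 in Q150 HOMO (4 higher; 11.4%) and 4 in Q175 HOMO mice (3 higher; 12.3%). Nfyc rose from 632, 559 and 609 CPM in R6/2 WT to 1372, 1178 and 1342 in R6/2 HD mice (1.11, SE 0.083, adjusted p = 4.71e-07), Zfp317 from 95.8 ± 4.04 to 242 ± 11.9 (1.33, SE 0.099, adjusted p = 4.71e-07) and Zmym3 from 33.5 ± 7.05 to 80.0 ± 3.23 (1.27, SE 0.16, adjusted p = 3.60e-05). In these genes the junctions together and the share of the short form rose in the same mice. In Q150 HOMO mice Zfp317 (0.76, SE 0.098, adjusted p = 1.87e-04) and Zmym3 (0.74, SE 0.13, adjusted p = 0.00308) were higher again. Zfp521, a zinc finger regulator of neural progenitors, was higher in Q150 HET (0.63, SE 0.14, adjusted p = 0.0301) and Q150 HOMO mice (0.83, SE 0.14, adjusted p = 0.00166), with 17.5 to 27.2 CPM in WT, 28.9 to 35.4 in HET and 33 to 41.5 in HOMO mice, which do not overlap WT. Its exclusion did not pass in either. Crem event 7869 was lower in Q150 HOMO mice (-0.90, SE 0.22, adjusted p = 0.0150), with WT mice from 44.8 to 112 and HOMO mice from 31.8 to 35.7. In Q175 HOMO mice Zfp512 (0.79, SE 0.22, adjusted p = 0.0281), at 4.90 ± 0.847 in WT and 8.53 ± 1.29 CPM in HOMO mice, Taf1 (0.41, SE 0.084, adjusted p = 0.00526) and Whsc1l1 (0.35, SE 0.094, adjusted p = 0.0224) were higher. The abundance calls of Zfp521 in Q150 HET, of Zfp512 and of Whsc1l1 in Q175 HOMO mice rested on single mice. The first was lost without WT replicate 1, 3, 4 or 5 or HET replicate 1, 2 or 3, the second without WT replicate 8 or 9 or HOMO replicate 1 or 2, and the third without HOMO replicate 2 or 3. Of the members that passed for abundance, 17 in R6/2, 5 in Q150 HOMO and none in Q175 HOMO mice also passed for the ratio, where 15.7%, 5.10% and 1.79% of all events passed for both.

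**Figure D5:**
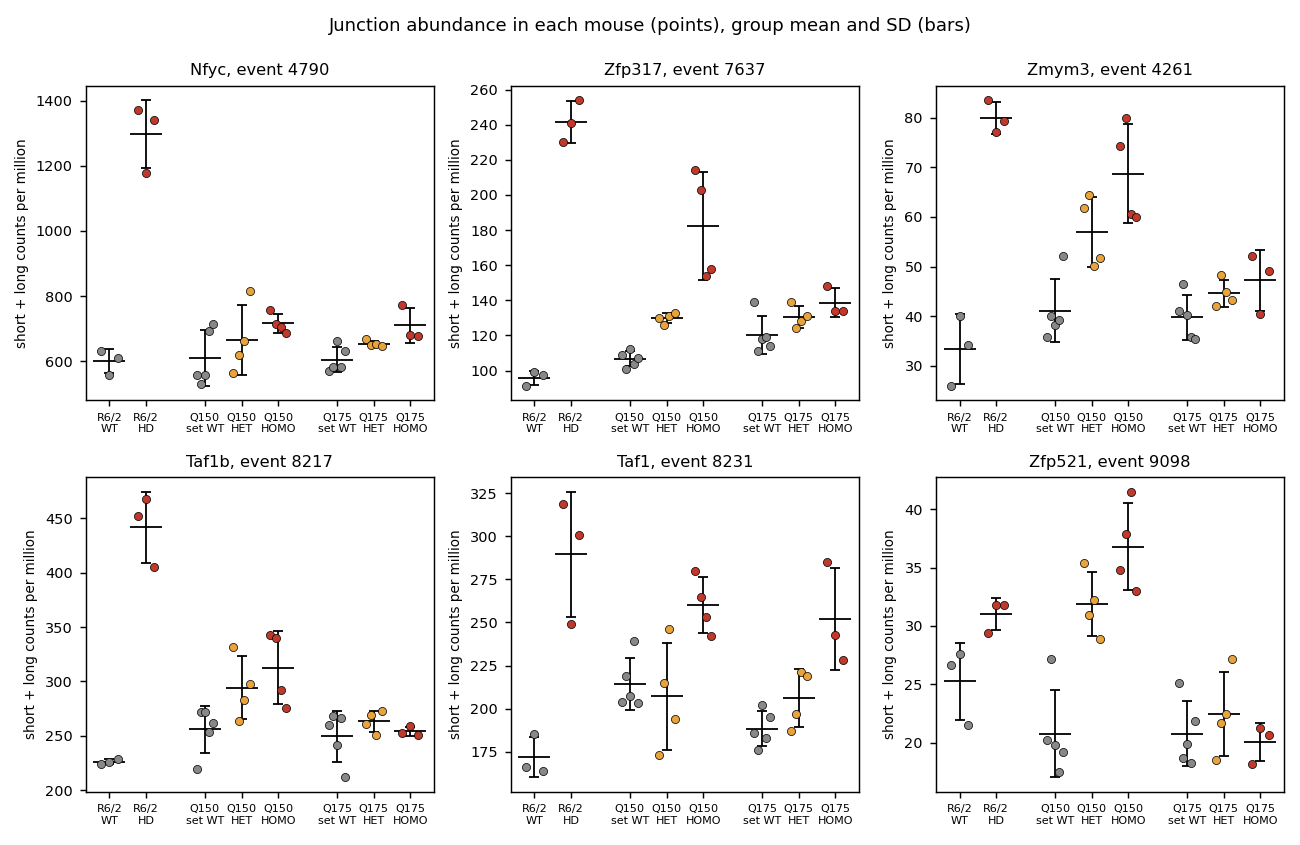
Sum of short and long counts in CPM (y axis, each panel on its own scale) at 6 member events in each of the 31 mice. Points are mice (grey WT, orange HET, red HD or HOMO) and bars the group mean and SD. Nfyc lies between 1178 and 1372 in R6/2 HD mice and at 816 or less in all other mice, and Zfp521 is above WT in Q150 HET and Q150 HOMO mice.

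These are samples of whole cortex, where fewer cells of a type and less RNA per cell cannot be told apart. The 9 of 16 listed neuron genes on the panel summed to 39844 to 43634 CPM in R6/2 WT and 32199 to 36840 in R6/2 HD mice, and to 41170 to 48825 in WT and 36030 to 41013 in HOMO mice of the Q150 set. The astrocyte genes Fgfr3 and Ndrg2, 2 of 10 listed, summed to 17578 to 18530 in R6/2 WT and 9037 to 10117 in R6/2 HD mice and to 13313 to 16674 in WT and 9707 to 11693 in HOMO mice of the Q175 set. Between WT and HOMO mice, the neuron sums overlapped in the Q175 set (36947 to 45191 and 38503 to 44354) and the astrocyte sums in the Q150 set (11946 to 16938 and 9261 to 14513). None of the 8 listed microglia genes was in the event lists, and sums of the 4 listed oligodendrocyte genes overlapped between WT and HD or HOMO mice in each set. The part of these shifts in the members' changes was not tested.

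Transcription and chromatin genes outside the symbol rule, such as receptors, Creb and Polycomb genes, were counted in the same way. They passed in 15 of 64 events in R6/2 (13 higher), 2 of 65 in Q150 HET, 16 of 65 in Q150 HOMO (13 higher), 1 of 68 in Q175 HET and 7 of 68 in Q175 HOMO mice, beside 28.6%, 3.47%, 23.9%, 0.598% and 7.07% of all events, with median changes of 0.23, 0.08, 0.18, 0.06 and 0.12. Sequence features of the members' exons were set beside those of the panel, without a test. Of the 81 members with 1 matched exon, 49 (60.5%) had a length that is a multiple of 3, against 65.5% of all 1520 matched events, 56 (69.1%) were wholly coding, against 75.7%, and 28 (34.6%) had TGTGTG, the letters of the UG repeats that TDP-43 binds, searched on the strand of the gene only, within 250 intron bases on either side, against 35.3%. The motif stood beside 5 of 13 matched members with higher exclusion in R6/2 and 18 of 53 that did not pass, and beside 7 of 19 and 20 of 58 in Q150 HOMO mice. Over all matched events these were 110 of 307 (35.8%) and 350 of 973 (36.0%) in R6/2. In Q150 HOMO mice they were 109 of 295 (36.9%) and 379 of 1063 (35.7%).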

How the data were processed

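Total RNA from the cortex of 31 mice was measured by RASL-seq, and the authors deposited for each mouse a table of whole-number short and long junction counts per event, not normalized. The submitters' processing notes name mm10 without a role, and the counting tool is not given in the sources used here. The deposited positions are not those of GRCm38 (14.0% of 1870 lay inside their gene), so no position was converted. Cassette events were matched by gene, chromosome and exact span to GENCODE vM21 exons of GRCm38.p6.

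The line of each knock-in mouse comes from the glutamine numbers of its genotype, since titles and genotype prefixes name 1 line for all (and not the same one), and WT mice went with the mutant mice that share their event list. The labels give each mouse as its own sample, and p-values measure the spread between these samples. Totals were 2171709 to 5256516 counts per mouse, and counts without molecular identifiers are not independent molecules.

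Log2((short + 0.5)/(long + 0.5)) was fitted over all events of a set with a mean of at least 10 counts by limma 3.58.1 (R 4.3.3) with a variance trend, all groups of a set sharing 1 spread, and Benjamini-Hochberg adjustment over all events. Differences between lines were tested in 1 fit over the mice of both sets, as the contrast of HD or HOMO minus WT in one set less that in the other. Abundance was fitted likewise on log2 CPM (junction counts scaled to the mouse's total) with a pseudocount of 0.5. Procedures were tested on simulated data, where the share of false calls was above the threshold for the R6/2 set and below it for both knock-in sets, and most of the smaller changes made were missed in each. Alternatives were a minimum of 50 or none, a pseudocount of 5, centring each mouse on its median event, no trend, a quasi-binomial model, leaving out each mouse, the series of mouse numbers as a term, all 10 knock-in WT mice, and median-ratio scaling of abundance.

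The members and lists were chosen with earlier results of these data known. The named members passed in at least 2 of 5 comparisons with WT, or were among the up to 5 largest changes without overlap in a comparison, or among the up to 3 largest that passed a test of lines or of abundance. Members named beyond these were chosen after their values were seen. Leaving out each mouse in the tests of lines and abundance, and values within a series, were added after seeing the data.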

Additional observations from a re-analysis of the deposited data

Results flagged for a closer look

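In groups of 4 or 5 mice, 8 of 125 tests found a mouse apart from the rest of its group by Dixon's gap over range, where chance gives about 1 in 20. For Med24 (0.873) this was Q175 HET replicate 2, at 33.9% beside 29.4% to 30.0%. For Ncor1 event 4961 it was Q150 HOMO replicate 2 (0.837), at 68.1% beside 72.6% to 73.5%, and Q175 HET replicate 1 (0.871), at 63.1% beside 69.0% to 69.8%. Q175 HET replicate 1 also had the lowest mean over all members of its group (0.869), 44.6% beside 45.8% to 46.0%. For Taf1 it was WT replicate 7 (0.801), at 40.0% beside 30.4% to 32.3%, for Taf1b Q150 HET replicate 4 (0.893), at 37.3% beside 43.4% to 44.2%, for Zfp521 Q175 HET replicate 4 (0.837), at 52.3% beside 59.8% to 61.3%, and for Zfp62 WT replicate 10 (0.836), at 69.2% beside 64.2% to 65.0%.

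Changes against WT that differed between lines by limma's test were the others looked at again, on the log2 scale. R6/2 HD less Q150 HOMO mice gave 1.15 for Taf1b, -0.59 for Hmgn3, -0.75 for Mef2a, -0.94 for Taf1 and -1.03 for Zfp62. R6/2 HD less Q175 HOMO mice gave 1.57 for Nfyc, 1.34 for Kdm6a event 9418, 1.25 for Taf1b, 1.15 for Jarid1c, 0.98 for Zfp317, 0.89 for Whsc1l1, 0.88 for Smarca4, 0.63 for Atf2 event 4502 and 0.62 for Ncor1 event 4961. On the lower side it gave -0.45 for Hmgn3, -0.61 for Mef2a, -0.88 for Mll5, -0.99 for Brd2, -1.14 for Zfp788 and -1.81 for Sp100. Q150 HOMO less Q175 HOMO mice gave 1.57 for Kdm6a event 9418, 1.40 for Smarca2, 1.32 for Mef2c, 1.00 for Tcf20, -0.61 for Brd2, -0.68 for Ncor1 event 7377 and -1.93 for Sp100. Several of these were lost without 1 mouse or under another setting. Against Q150 in R6/2, Hmgn3 was lost without WT replicate 3 or 6 or HD replicate 860 or 869, as was Zfp62. Against Q175, Hmgn3 was lost without the same R6/2 mice, WT replicate 9 or HOMO replicate 2 or 3, Atf2 event 4502 without R6/2 WT replicate 3 or 6, HD replicate 869, WT replicate 6 or 7 or HOMO replicate 2, and Mll5 without R6/2 WT replicate 4 or 6, HD replicate 860 or 869, WT replicate 6, 7 or 9 or HOMO replicate 1 or 3. Ncor1 event 4961 was lost without HOMO replicate 3, Zfp788 without R6/2 WT replicate 3 and Whsc1l1 without R6/2 WT replicate 6. Between Q150 and Q175, Tcf20 was lost in 12 of 25 fits, without Q150 set WT replicate 2, 3 or 4, Q150 HOMO replicate 1, 2 or 3, Q175 set WT replicate 6, 8 or 9 or any Q175 HOMO mouse. Brd2 was lost without Q150 HOMO replicate 1, WT replicate 9 or Q175 HOMO replicate 1 or 3, Mef2c without WT replicate 6 or Q175 HOMO replicate 1 or 2, and Ncor1 event 7377 without Q150 HOMO replicate 2, WT replicate 9 or Q175 HOMO replicate 1. Without a variance trend Hmgn3, Atf2, Ncor1 event 4961, Mll5, Sp100, Whsc1l1, Tcf20 and Brd2 (between Q150 and Q175) were lost, and relative to the median event Atf2, Ncor1 event 4961, Tcf20 and Mef2c. Lines differed in age and background at once, which cannot be told apart from the alleles.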

How the results depend on the processing

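No named change that passed turned its direction under any alternative. Members passing in Q150 HET mice went from 3 to 1 without a variance trend, 8 with all 10 knock-in WT mice and 11 with the series of mouse numbers as a term (7.68% of all events). That term also gave 3 members between Q150 HOMO and HET mice (4.48% of all events) in place of 0 and 1 in Q175 HOMO mice in place of 2, as did no variance trend. Centring on the median event gave 16 in Q150 HOMO mice (18.3% of all events), 9 of them higher and 12 of the 30 shared, in place of 30 (27 higher). In R6/2 it gave 24 (27.6% of all events), 12 of them higher and 21 of the 25 shared, in place of 25 (16 higher). In Q150 HET mice it gave 3 (1 higher). Of the 19 named Q150 HOMO calls 8 were lost by centring, so most Q150 HOMO calls outside the named events were lost. Between Q150 HOMO and Q175 HOMO mice 4 members differed without a variance trend in place of 7. Median-ratio scaling gave 8 abundance calls in Q150 HOMO mice (11.4% of all events) in place of 14. The causes were not tested. For the other settings, and for the fits without 1 mouse below, the share of all events is not given. Those counts thus do not show whether the members or all events moved.

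Leaving out 1 mouse at a time gave 20 to 25 members in R6/2, 0 to 4 in Q150 HET, 18 to 30 in Q150 HOMO (18 without HOMO replicate 1 or 2), 0 in Q175 HET and 2 in Q175 HOMO mice, and 0 to 1 between HOMO and HET mice in both lines. Q150 HET mice gave 0 without HET replicate 1, and 1 without WT replicate 4 or HET replicate 2. Differences between lines ranged from 3 to 7 (R6/2 and Q150), 11 to 16 (R6/2 and Q175) and 1 to 10 (Q150 and Q175; 1 without Q175 HOMO replicate 1). Abundance calls ranged from 40 to 43 in R6/2, 0 to 2 in Q150 HET, 6 to 14 in Q150 HOMO (6 without HOMO replicate 1 or 2), 0 in Q175 HET and 3 to 7 in Q175 HOMO mice. Through every alternative 12 of 19 named calls passed in R6/2, 10 of 19 in Q150 HOMO, 1 of 2 in Q175 HOMO and 0 of 3 in Q150 HET mice. No paired analysis was possible because the groups compared share fewer than 2 replicate numbers that the labels tie to a litter or day.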
